A study of Mus musculus with 2 samples.

Results

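Kupffer cells are the resident macrophages of the liver, and 10 genes that mark them were followed here through thioacetamide injury in AID transgenic and wild-type mice. The genes were Marco, Cd163, Cd5l, Clec4f, Timd4, Folr2, Adgre1, Vsig4, C1qa and C1qb, taken by gene name from the non-control probes of an Agilent mouse array, where Adgre1 appears under its older name Emr1. All 10 were found, out of 22803 named genes on the array, with 11 probes of 60 bases that each had 1 spot. Adgre1 had 2 probes and every other marker had 1. The rule that finds them on the array uses names and no measured value.

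The study hybridised 2 arrays, each with 2 colours. The AID transgenic array held liver RNA of AID transgenic mice given thioacetamide in Cy5 and liver RNA of AID transgenic mice without treatment in Cy3. The wild-type array held liver RNA of wild-type mice given thioacetamide in Cy5 and of untreated wild-type mice in Cy3. All mice had a C57BL/6 background, and the treated mice drank thioacetamide for 6 months. Thioacetamide is a liver toxin that causes fibrosis in rodents. The promoter that drives the transgene, the sex and age of the animals and whether a channel held 1 animal or a pool are not stated in the labels.

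As background, Kupffer cells line the liver sinusoids, where they take up bacteria, complement-coated particles, dying cells and old red cells from the portal blood. Most descend from embryonic precursors and renew themselves locally. In injured liver they can be lost, and monocytes from the blood then enter the empty niche. These take on some of the same genes over time, Timd4 among the late ones. The markers fall into scavenger receptor proteins (Marco, Cd163, Cd5l), uptake receptors (Clec4f, Timd4, Folr2), a surface antigen of mouse macrophages (Adgre1) and complement proteins (Vsig4, C1qa, C1qb).

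With 1 array per genotype and no dye swap, no test was possible, and no p-value is given. Each log2 ratio of treated over untreated is followed by ± the error that the scanning software gave the spot's log2 ratio, a technical error and not the spread between mice. For a gene with more than 1 spot it is the root mean square of the spots' errors, and not the spread between probes. Between 53.9% and 68.8% of 43020 non-control spots were well above background in a channel. The treated wild-type liver stood apart in sex-linked transcripts. The Y-linked genes Ddx3y and Eif2s3y were at least 17.6-fold and at least 32.1-fold lower there than in the untreated wild-type liver, and Xist, the RNA of the inactive X chromosome, was at least 6.18-fold higher. These bounds were set against the lowest level well above background where the dim signal itself was lower. On the AID transgenic array, Ddx3y had a log2 ratio of -0.11 ± 0.20 and both Xist signals were near background. Wild-type treatment ratios, levels of the treated wild-type liver, and all values set against either carry this difference. It cannot be told apart from the treatment, or from genotype where the treated livers are compared.

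Several Kupffer cell markers, Cd5l above all, were higher in the treated liver of AID transgenic mice, and in wild-type mice none differed by 2-fold. Of 10 markers, 3 (Cd5l, Vsig4 and Clec4f) were at least 2-fold higher in the treated AID transgenic liver and 0 were at least 2-fold lower. Across all 16708 genes measured on that array, 1.21% were at least 2-fold higher and 0.946% lower. The marker median was a log2 ratio of 0.92, against 0.03 for all genes. In wild-type, 0 of 10 markers were at least 2-fold higher or lower, where 1.86% of 16673 genes were higher and 1.64% lower, and the marker median was 0.05, against 0.03 for all genes. All 10 log2 ratios were above 0 in AID transgenic and 6 of 10 were above 0 in wild-type, where 54.6% and 54.7% of all genes were. Cd163, dim in both untreated livers, is in these counts, and without it they were 9 of 9 in AID transgenic and 5 of 9 in wild-type. With median centring of the arrays in place of loess, the median of all genes moved to 0.34 on the AID transgenic and 0.35 on the wild-type array. Values given with median centring, here and below, are to be set against these medians and not against 0. The marker median then lay 1.14 above all genes in AID transgenic and 0.25 above in wild-type, against 0.89 and 0.02 with loess. With that centring, the share of all genes at least 2-fold up was 8.13% in AID transgenic and 10.4% in wild-type, and the share at least 2-fold down was 0.317% and 0.612%. In whole liver RNA, more cells of a type and more RNA per cell cannot be told apart.

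**Figure D1:**
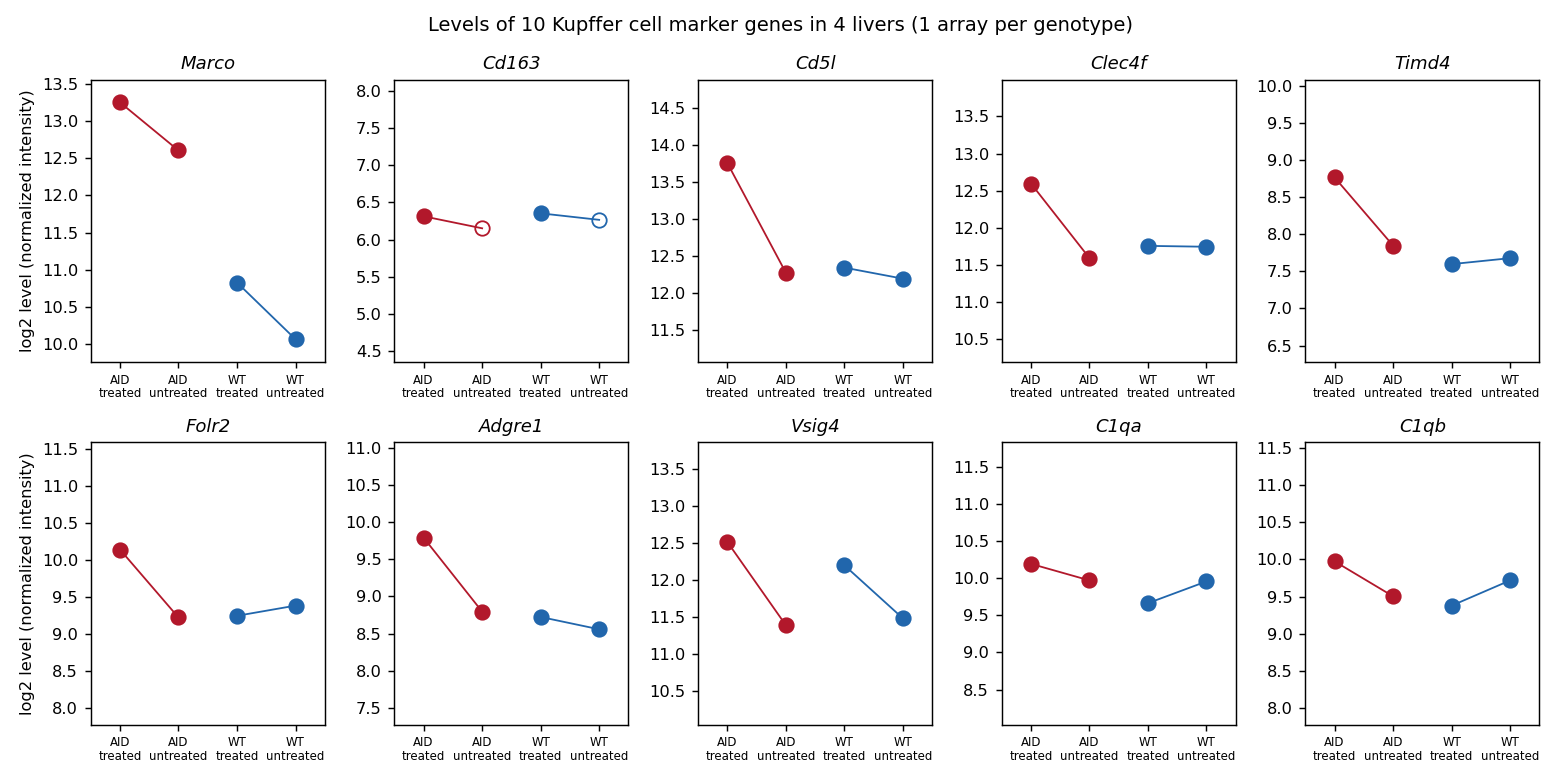
Normalized log2 level (y axis, log2 intensity) of each marker in the treated and untreated AID transgenic livers (red) and the treated and untreated wild-type livers (blue), with a panel per gene, the same height of axis in each, and open circles where the spot was not well above background. The treated AID transgenic liver is the highest of the 4 for 9 of 10 markers, and Marco differs between the genotypes with and without treatment. The share of all genes with that liver highest was not counted.

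The scavenger receptor proteins gave 3 different patterns. Cd5l, which encodes a secreted protein of macrophages also called AIM that binds lipids and modified surfaces, had the largest treatment ratio of the markers. Its normalized log2 level was 13.75 in the treated AID transgenic liver and 12.28 in the untreated one, and 12.34 in the treated wild-type liver and 12.20 in the untreated one. The treated AID transgenic liver was thus the one that stood apart, and the other 3 lay within 0.15 of each other, less than the technical error. The log2 ratio of treated over untreated was 1.48 ± 0.25 in AID transgenic, a 2.78-fold difference, and 0.15 ± 0.20 in wild-type. On the AID transgenic array, 99.6% of the measured genes had a lower ratio than Cd5l.

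Marco, a class A scavenger receptor that binds bacteria and particles, differed mainly between the genotypes. As scanned, its Cy5 spot read 13683 on the treated AID transgenic liver and 2847 on the treated wild-type liver, and its Cy3 spot read 3894 on the untreated AID transgenic liver and 750.4 on the untreated wild-type liver. Local background was between 26 and 59 for these spots, and none was saturated. On the normalized log2 scale its level was 13.25 and 12.61 in the treated and untreated AID transgenic livers, and 10.83 and 10.06 in the treated and untreated wild-type livers. Both AID transgenic livers were above both wild-type livers. The log2 ratio of AID transgenic over wild-type was 2.43 ± 0.20 between the treated livers, or 5.38-fold, and 2.54 ± 0.20 between the untreated livers, or 5.83-fold, where ± combines the scanner's errors of both signals. Among 14307 genes measured in the untreated livers, Marco ranked 2 from the top. The treatment ratios were alike within their technical errors, at 0.65 ± 0.21 in AID transgenic and 0.76 ± 0.22 in wild-type, and they differed by -0.12 ± 0.30. The array holds 1 probe for Marco, and the genome coordinates given for it cover 20 of its 60 bases.

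Cd163, the receptor that clears haemoglobin bound to haptoglobin, gave too dim a spot to show a difference. It was well above background in both treated livers and in neither untreated liver. Its log2 levels were 6.31 and 6.15 in the treated and untreated AID transgenic livers, and 6.35 and 6.26 in the treated and untreated wild-type livers. The log2 ratios were 0.16 ± 0.71 in AID transgenic and 0.09 ± 0.50 in wild-type, and with median centring they were -0.14 and -0.15. The scanner's processed signals gave 1.46 in AID transgenic and -0.27 in wild-type. A difference in Cd163 was not detectable at this signal.

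The uptake receptors moved together. Clec4f is a C-type lectin that in mouse liver marks Kupffer cells, Timd4 encodes a receptor for phosphatidylserine on dying cells, and Folr2 encodes a folate receptor of resident macrophages. The array sequences that measured Clec4f, Folr2 and the C1q genes are shown in lower case, 5′ to 3′, because a single spot of each carries the values given for it. Coordinates are of the build mm9, from the array files, and those of Clec4f cover 59 of its 60 bases.
C1qa probe, chr4:136452409-136452468, minus strand: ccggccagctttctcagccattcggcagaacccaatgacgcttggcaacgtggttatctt
C1qb probe, chr4:136436578-136436637, minus strand: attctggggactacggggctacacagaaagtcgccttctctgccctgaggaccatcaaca
Clec4f probe, chr6:83595281-83595339, minus strand: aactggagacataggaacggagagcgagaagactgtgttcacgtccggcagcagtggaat
Folr2 probe, chr7:108988771-108988830, minus strand: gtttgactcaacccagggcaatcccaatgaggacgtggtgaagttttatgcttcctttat
Clec4f had log2 levels of 12.60 and 11.59 in the treated and untreated AID transgenic livers, and 11.76 and 11.75 in the treated and untreated wild-type livers. Timd4 had 8.76 and 7.85 in the treated and untreated AID transgenic livers, and 7.60 and 7.68 in the treated and untreated wild-type livers. Folr2 had 10.14 and 9.22 in the treated and untreated AID transgenic livers, and 9.25 and 9.38 in the treated and untreated wild-type livers. For each of the 3 genes the treated AID transgenic liver was the highest, by 0.84, 0.92 and 0.76 over the next, and the other 3 livers lay within 0.16, 0.25 and 0.16 of each other. The treatment log2 ratio of Clec4f was 1.005 ± 0.22 in AID transgenic and 0.01 ± 0.20 in wild-type. That of Timd4 was 0.92 ± 0.23 in AID transgenic and -0.08 ± 0.21 in wild-type, where median centring gave 0.31. Folr2 had 0.92 ± 0.22 in AID transgenic and -0.14 ± 0.21 in wild-type, where median centring gave 0.50. The wild-type ratios of Timd4 and Folr2 were smaller than their technical errors.

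Adgre1 encodes an adhesion-type surface receptor whose antibody stain identifies mouse macrophages. Its 2 probes had log2 ratios of 1.36 and 0.63 in AID transgenic and 0.41 and -0.08 in wild-type, so they differed in size while each was higher in AID transgenic. Their mean was 0.995 ± 0.23 in AID transgenic and 0.17 ± 0.21 in wild-type. As a mean over both probes, the log2 level was 9.79 and 8.79 in the treated and untreated AID transgenic livers, and 8.72 and 8.56 in the treated and untreated wild-type livers. The treated AID transgenic liver was the highest by 0.995, and the other 3 were within 0.24.

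Among the complement genes, Vsig4 differed from the C1q chains. Vsig4 encodes the complement receptor CRIg, with which Kupffer cells capture particles coated with C3 fragments. Its log2 level was 12.51 and 11.39 in the treated and untreated AID transgenic livers, and 12.20 and 11.48 in the treated and untreated wild-type livers. Both treated livers were above both untreated livers, and Vsig4 and Marco were the only markers whose wild-type ratio was above 0 by more than its technical error. C1qa and C1qb were below 0 there by more than theirs. The log2 ratio was 1.12 ± 0.23 in AID transgenic and 0.71 ± 0.22 in wild-type, and these differed by 0.41 ± 0.31.

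C1qa and C1qb encode the A and B chains of C1q, the recognition part of the classical complement pathway, which is made mainly by macrophages. C1qa had log2 levels of 10.19 and 9.97 in the treated and untreated AID transgenic livers, and 9.66 and 9.96 in the treated and untreated wild-type livers. C1qb had 9.97 and 9.50 in the treated and untreated AID transgenic livers, and 9.38 and 9.72 in the treated and untreated wild-type livers. For both genes the treated AID transgenic liver was the highest and the treated wild-type liver the lowest of the 4. The C1qa log2 ratio was 0.22 ± 0.21 in AID transgenic and -0.29 ± 0.21 in wild-type, where median centring gave 0.37. That of C1qb was 0.47 ± 0.21 in AID transgenic and -0.34 ± 0.21 in wild-type, where median centring gave 0.31. With that centring the median of all wild-type genes was 0.35. C1qc, the gene of the third chain, lies between the other two on chromosome 4 in GRCm38.p6 (chr4:136889801-136892936, with C1qb at chr4:136880126-136886200 and C1qa at chr4:136895916-136898844). It had 0.88 ± 0.22 in AID transgenic and 0.15 ± 0.20 in wild-type.

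**Figure D2:**
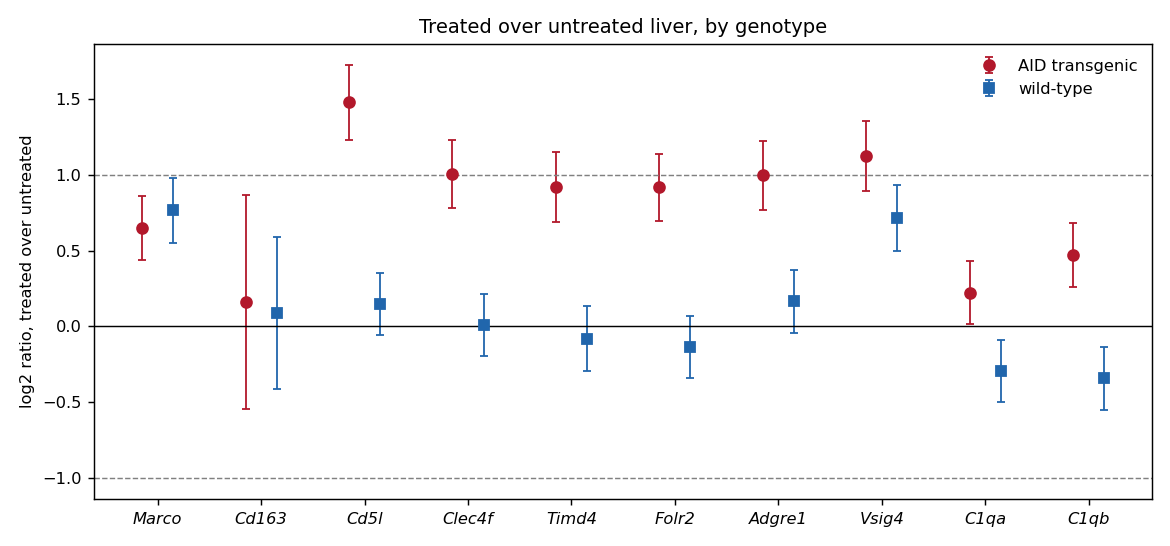
Log2 ratio of treated over untreated liver (y axis) of the 10 markers (x axis) on the AID transgenic array (red circles) and the wild-type array (blue squares), with bars for the scanner software's error of the log2 ratio and dashed lines at 2-fold. Cd5l is at 1.48 in AID transgenic and 0.15 in wild-type, while Marco is at 0.65 and 0.76.

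The difference between the treatment ratios, AID transgenic minus wild-type, was at least 2-fold for Cd5l at 1.33 ± 0.32 and Folr2 at 1.05 ± 0.30. Across 17120 genes, 0.929% had a difference at least 2-fold above 0 and 1.05% at least 2-fold below. Timd4 at 0.999 ± 0.31 and Clec4f at 0.993 ± 0.30 lay just under 2-fold, and Timd4 was at 1.105 with median centring. They were followed by Adgre1 at 0.83 ± 0.31 and C1qb at 0.81 ± 0.29. The difference was above 0 for 9 of 10 markers, against 49.5% of all genes, and Marco was the exception. Cd163, at 0.07 ± 0.87, is in this count too. The marker median was 0.82, against 0.00 for all genes, and it ranged from 0.82 to 0.99 over the processing alternatives.

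Set against each other in the same dye, the treated livers differed and the untreated livers, apart from Marco, hardly did. The treated pair also differed in sex-linked transcripts. Ddx3y was at least 17.5-fold and Eif2s3y at least 29.8-fold higher in AID transgenic, and Xist at least 7.37-fold lower. Between the untreated livers, Ddx3y had a log2 ratio of 0.10 and Eif2s3y of -0.06. In the treated pair, genotype and this sex-linked difference cannot be told apart. Between the treated livers, AID transgenic over wild-type, 4 of 10 markers were at least 2-fold higher (Marco, Cd5l, Timd4 and Adgre1) and 0 were lower, where 0.731% of 17092 genes were higher and 0.755% lower. The ratio was above 0 for 9 of 10 markers and 49% of all genes. Cd5l had a log2 ratio of 1.41 ± 0.20, Timd4 1.17 ± 0.20 and Adgre1 1.07 ± 0.20. Folr2, Clec4f, C1qb, C1qa and Vsig4 followed, from 0.89 to 0.31. Between the untreated livers, 1 of 9 measured markers, Marco, was at least 2-fold higher, where 0.308% of 14307 genes were, and 0 were lower, against 0.294%. The other 8 markers had log2 ratios between -0.21 for C1qb and 0.24 for Adgre1, and Cd163 was not well above background. The ratio was above 0 for 5 of 9 markers and 49.3% of all genes. The marker median was 0.87 between the treated and 0.01 between the untreated livers, against 0.00 for all genes in both. These comparisons and the difference of the treatment ratios are made from the same 4 signals, so they do not back each other independently.

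**Figure D3:**
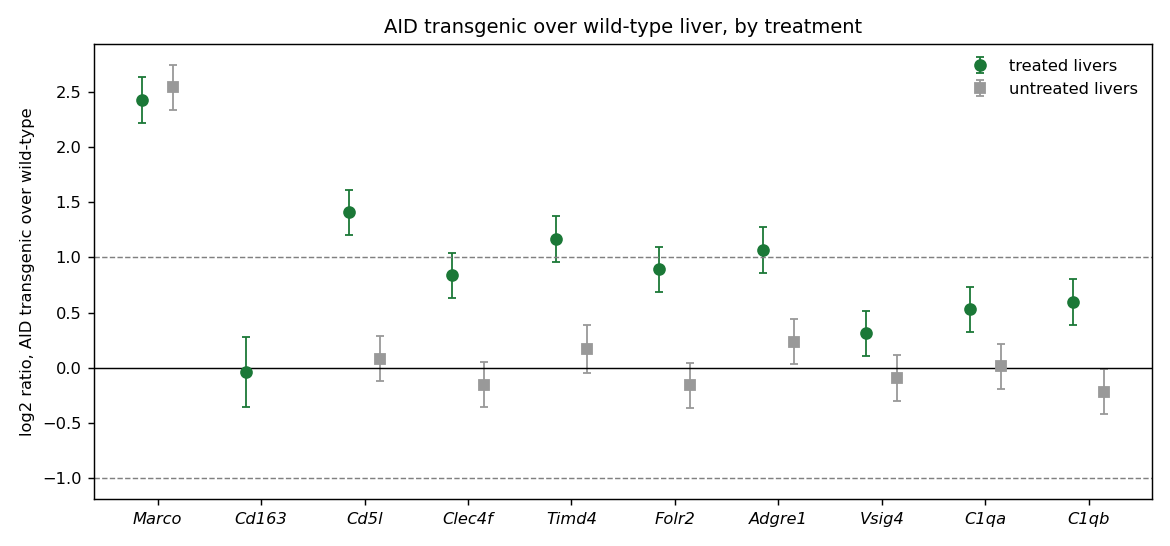
Log2 ratio of AID transgenic over wild-type (y axis) of the markers (x axis) between the treated livers (green circles) and between the untreated livers (grey squares), with bars for the combined scanner errors of both signals and dashed lines at 2-fold. Marco is at 2.43 and 2.54, whereas the other markers measured in the untreated livers are within 0.24 of 0 there.

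Among other genes of Kupffer cells and resident macrophages, beyond the 10, 18 of 20 were above 0 in AID transgenic. In wild-type 9 of 20 were. Beside these counts, and those of the lists below, stand the shares of all genes. Above 0 were 54.6% in AID transgenic and 54.7% in wild-type. At least 2-fold higher were 1.21% in AID transgenic and 1.86% in wild-type, and at least 2-fold lower 0.946% and 1.64%. Of 20 measured, 2 were at least 2-fold higher in the treated AID transgenic liver and 0 lower, with a median log2 ratio of 0.56. In wild-type 0 of 20 were higher or lower, with a median of -0.04. The leading genes in AID transgenic were the metal transporter gene Slc11a1 at 1.20 ± 0.24, the iron exporter gene Slc40a1 at 1.12 ± 0.23, the receptor kinase gene Axl at 0.997 ± 0.23 and Il18bp, which encodes an inhibitor of interleukin 18, at 0.98 ± 0.23. In wild-type these genes had -0.07 ± 0.21, 0.74 ± 0.22, 0.37 ± 0.21 and 0.00 ± 0.20. Csf1r, the receptor of the macrophage growth factor CSF1, had 0.61 ± 0.22 in AID transgenic and -0.06 ± 0.21 in wild-type. The log2 ratios of its 3 probes had an SD of 0.45 in AID transgenic and 0.16 in wild-type. The lowest ratio in AID transgenic was that of the ficolin gene Fcna, at -0.28 ± 0.21, with -0.24 ± 0.21 in wild-type. Cd68 had -0.00 ± 0.29 in AID transgenic and -0.16 ± 0.29 in wild-type. Hpgd, which encodes an enzyme that breaks down prostaglandins, ran the other way, with 0.06 ± 0.20 in AID transgenic and 0.92 ± 0.22 in wild-type. With median centring the list medians were 1.09 in AID transgenic and 0.54 in wild-type, and the wild-type values of Slc11a1 and Csf1r turned to 0.54 and 0.54.

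The transcription factors of Kupffer cells did not share the shift of the markers. Of 12 measured, 0 were at least 2-fold higher in AID transgenic, with a median of 0.02, and 1, Id1, was in wild-type, with a median of 0.04. Nr1h3, which encodes the sterol receptor LXR alpha needed for Kupffer cell identity, had -0.02 ± 0.20 in AID transgenic and -0.03 ± 0.20 in wild-type, and median centring turned these to 0.69 and 0.71. Hepatocytes express Nr1h3 too. Spic, a factor of macrophages that recycle iron, had 0.73 ± 0.23 in AID transgenic and 0.27 ± 0.23 in wild-type, and Irf8 had 0.61 ± 0.21 and 0.14 ± 0.21. Id3 was alike on both arrays, at 0.99 ± 0.22 in AID transgenic and 0.82 ± 0.22 in wild-type. Id1, a target of BMP signalling in several liver cells, had 0.91 ± 0.23 in AID transgenic and 2.57 ± 0.33 in wild-type. Spi1, the gene of PU.1, was well above background in 2 of the 4 signals, with technical errors of 0.65 in AID transgenic and 0.54 in wild-type.

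Of 12 ligands and receptors of the Kupffer cell niche, 1 was at least 2-fold higher in AID transgenic, the Notch ligand gene Dll4 at 1.03 ± 0.26, and it had 0.31 ± 0.24 in wild-type. None was at least 2-fold lower there, and 0 of 12 were higher or lower in wild-type. The list medians were 0.09 in AID transgenic and 0.08 in wild-type. Csf1, the growth factor that keeps macrophages alive, had 0.23 ± 0.22 in AID transgenic and 0.40 ± 0.22 in wild-type. Gdf2, the gene of BMP9 from stellate cells, had -0.79 ± 0.22 in AID transgenic and 0.08 ± 0.20 in wild-type, and with median centring -0.17 and 0.73.

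Genes shared by leukocytes, Kupffer cells among them, and genes of monocytes and neutrophils were read on the same arrays. The difference of the treatment ratios had a median of 0.50 for the pan-leukocyte and myeloid genes. It was 0.07 for monocyte genes, 0.28 for neutrophil genes and 0.00 for all genes. All 7 pan-leukocyte and myeloid genes were above 0 in AID transgenic, with 2 at least 2-fold higher and a median of 0.74, and 0 of 7 were 2-fold higher in wild-type, with a median of 0.19. The adaptor gene Tyrobp had 1.17 ± 0.23 in AID transgenic and 0.15 ± 0.20 in wild-type, and Aif1 had 1.02 ± 0.23 and 0.39 ± 0.21. The summed normalized level of these 7 genes was 8847 in the treated and 4542 in the untreated AID transgenic liver, and 5049 in the treated and 4287 in the untreated wild-type liver. Of 12 monocyte and infiltrating macrophage genes, 1 was at least 2-fold higher in AID transgenic, with a median of 0.38, and of 11 measured in wild-type 2 were, Ccl2 and Ly6c1, with a median of 0.29. The probes of Ly6c1 disagreed there, with an SD of 1.53 between their log2 ratios. The summed level of the 12 monocyte genes was 8529 in the treated and 4952 in the untreated AID transgenic liver. It was 6200 in the treated and 3864 in the untreated wild-type liver. Lyz1 carries most of each sum, with log2 levels of 12.50 and 11.53 in the treated and untreated AID transgenic livers. In the treated and untreated wild-type livers it had 11.77 and 10.96. Ccl2, a chemokine gene that draws monocytes, had 1.30 ± 0.29 in AID transgenic and 1.06 ± 0.26 in wild-type. Ccr2, its receptor on monocytes, was well above background in both treated and neither untreated liver, at least 1.13-fold higher in AID transgenic and at least 1.15-fold higher in wild-type, and Ly6c2 was not analysed here. With the scanner's processed signals, the monocyte medians were 0.91 in AID transgenic and 1.25 in wild-type. The neutrophil genes S100a9 and S100a8 had 1.60 ± 0.27 and 0.79 ± 0.28 in AID transgenic, and -0.51 ± 0.22 and -0.30 ± 0.24 in wild-type, where median centring gave 0.03 and -0.09. Of 5 neutrophil genes measured, 1 was at least 2-fold higher in AID transgenic, with a median of 0.57, and 0 in wild-type, with a median of -0.21. Their summed level, with the undetected gene Ngp, was 33837 in the treated and 22711 in the untreated AID transgenic liver, and 28752 in the treated and 23870 in the untreated wild-type liver. Csf3r carries most of this sum, with log2 levels of 14.99 and 14.42 in the treated and untreated AID transgenic livers, and 14.77 and 14.48 in the treated and untreated wild-type livers. The part of these cells in the Kupffer marker ratios was not tested.

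Of 9 genes of lipid- and scar-associated macrophages, 6 had a lower treatment ratio in AID transgenic than in wild-type and 3 a higher one. Of the lower, 2 (Spp1 and Gpnmb) differed by 2-fold. Of all genes, 49.5% had a higher ratio in AID transgenic, and 1.05% were lower there by at least 2-fold. In AID transgenic 2 of 9 were at least 2-fold higher and 0 lower, with a median of 0.00, and in wild-type 4 of 8 were higher and 1 lower, with a median of 0.99. With median centring the medians were 0.56 in AID transgenic and 1.51 in wild-type. Trem2, a lipid-sensing receptor of such cells, had 0.63 ± 0.28 in AID transgenic and 1.54 ± 0.30 in wild-type. Gpnmb, well above background only in the treated livers, was at least 1.18-fold higher in AID transgenic and at least 2.76-fold higher in wild-type. Cd63 had 2.32 ± 0.30 in AID transgenic and 2.87 ± 0.34 in wild-type, and Clec7a, which encodes the receptor Dectin-1, had a higher ratio in AID transgenic, with 1.71 ± 0.28 against 1.14 ± 0.24 in wild-type. Spp1, the osteopontin gene, which bile duct cells also express, had -0.31 ± 0.21 in AID transgenic, or 0.12 with median centring, and 0.83 ± 0.22 in wild-type. The member at least 2-fold lower in wild-type was Fabp5 at -1.37 ± 0.24, and it had -0.41 ± 0.21 in AID transgenic, or 0.28 with median centring. The summed level of the list was 15265 in the treated and 9164 in the untreated AID transgenic liver. It was 15591 in the treated and 8063 in the untreated wild-type liver. Cd63 carries most of the treated sums, with log2 levels of 13.03 in AID transgenic and 13.37 in wild-type. Fabp5 carries the largest part of the untreated sums, with 12.05 in AID transgenic and 12.15 in wild-type.

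Sinusoidal endothelium and lymphocyte genes had no member at 2-fold on either array with loess and an offset of 50. The 8 endothelial genes had medians of -0.03 in AID transgenic and -0.16 in wild-type, or 0.67 and 0.47 with median centring. Lyve1 had the highest ratio in AID transgenic, at 0.48 ± 0.22, against -0.09 ± 0.21 in wild-type. The 6 lymphocyte genes had medians of 0.16 in AID transgenic and 0.00 in wild-type. Most of them were dim in an untreated liver, and 2 in AID transgenic and 3 in wild-type were well above background in both channels, with medians of -0.03 and -0.05. With the scanner's processed signals 2 of 6 were at least 2-fold higher in AID transgenic, with a median of 0.72, and 1 of 6 in wild-type, with a median of 0.03. With an offset of 0, 1 was on each array. Of all genes, 9.09% were at least 2-fold higher in AID transgenic and 9.46% in wild-type with the processed signals. With an offset of 0 these shares were 3.71% and 4.69%. Of 5 hepatocyte genes 1 was lower on each array, the apolipoprotein gene Apoa1, at -1.84 ± 0.27 in AID transgenic and -1.79 ± 0.26 in wild-type, and the medians were 0.08 and -0.25, or 0.89 and 0.62 with median centring.

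**Figure D4:**
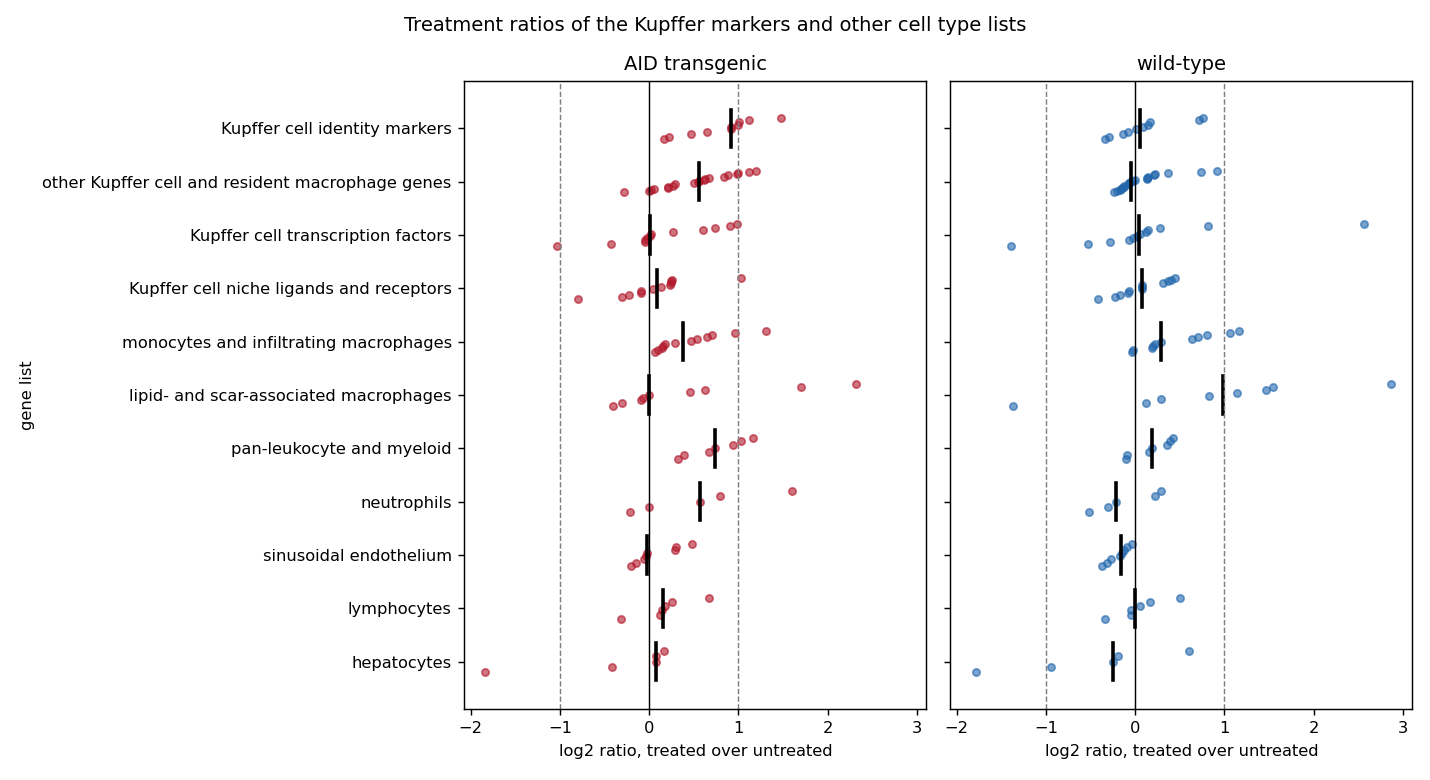
Log2 ratio of treated over untreated liver (x axis) of each measured gene (dots) in 11 gene lists (y axis) on the AID transgenic array (left, red) and the wild-type array (right, blue), with a black bar at the median and dashed lines at 2-fold. The Kupffer markers have medians of 0.92 in AID transgenic and 0.05 in wild-type, and the lipid- and scar-associated list has 0.00 and 0.99.

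The genes whose 4 levels were most like the mean profile of the 9 markers well above background everywhere were sought among 13466 genes detected in all 4 livers. After centring each gene on its own mean, the marker profile was 0.76 and -0.11 in the treated and untreated AID transgenic livers, and -0.27 and -0.38 in the treated and untreated wild-type livers. Marco is among the 9, and its log2 ratio of AID transgenic over wild-type was 2.54 between the untreated livers. The rest of the 9 lay between -0.21 and 0.24 there, so the gap between the untreated livers in this mean follows Marco. The 5 nearest genes by Euclidean distance over the 4 levels were Sik1 at 0.06, Rac2 at 0.07, Keg1 at 0.08, Gzma at 0.10 and Adgre4 at 0.10. None of the 5 is in the cell type lists used here, so they are not read as genes of a cell type. With 4 values a gene, likeness of this kind is a description only.

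Promoter sequence (RefSeq, GRCm38.p6) was read for 8 of the 10 markers, all but Adgre1 and C1qa. The 250 bases before the start site are shown for Cd5l, Clec4f and Vsig4, the markers at 2-fold in the treated AID transgenic liver, and for Marco, which differed by genotype. Capitals mark GAGGAA and GGAAGT on either strand, 2 forms of the core that PU.1 and other ETS factors bind, and they overlap where the letters run together.
Cd5l promoter, chr3:87357631-87357880, plus strand: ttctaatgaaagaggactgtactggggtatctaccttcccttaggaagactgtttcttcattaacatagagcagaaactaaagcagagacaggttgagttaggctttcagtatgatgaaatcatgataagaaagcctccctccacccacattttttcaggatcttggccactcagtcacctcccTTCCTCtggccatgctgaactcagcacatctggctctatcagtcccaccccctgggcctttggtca
Clec4f promoter, chr6:83656117-83656366, minus strand: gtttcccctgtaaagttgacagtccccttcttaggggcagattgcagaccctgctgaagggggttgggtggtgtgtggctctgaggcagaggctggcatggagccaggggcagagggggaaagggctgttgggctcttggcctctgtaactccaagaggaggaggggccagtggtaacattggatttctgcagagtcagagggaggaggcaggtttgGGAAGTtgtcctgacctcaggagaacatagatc
Vsig4 promoter, chrX:96293439-96293688, minus strand: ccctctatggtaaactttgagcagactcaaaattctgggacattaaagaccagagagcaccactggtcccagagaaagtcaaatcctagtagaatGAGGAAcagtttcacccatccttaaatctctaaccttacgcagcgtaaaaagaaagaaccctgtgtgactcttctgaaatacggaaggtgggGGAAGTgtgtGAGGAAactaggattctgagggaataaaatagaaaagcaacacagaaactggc
Marco promoter, chr1:120505025-120505274, minus strand: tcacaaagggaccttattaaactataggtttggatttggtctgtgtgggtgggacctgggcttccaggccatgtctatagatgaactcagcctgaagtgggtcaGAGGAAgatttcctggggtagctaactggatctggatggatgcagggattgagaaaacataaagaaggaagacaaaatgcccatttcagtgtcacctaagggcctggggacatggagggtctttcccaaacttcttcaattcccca
GAGGAA was found before 4 of the 8 marker genes (Marco, Cd5l, Vsig4 and C1qb) and in 23.3% of 32851 promoter windows of the same length. GGAAGT was found before 5 of 8 (Clec4f, Timd4, Folr2, Vsig4 and C1qb) and in 19.7% of all windows. A marker gene was counted when any of its windows matched, while the shares are over windows. Folr2 had 2 windows, and not both held GGAAGT. The direct repeat that LXR binds with its partner RXR, searched as AGGTCA, then any 4 bases, then AGGTCA again on either strand, was found before 0 of 8 and in 0.0152% of windows. The window of Cd163 held none of the 3. A match describes letters only and is no binding site.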

How the data were processed

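Liver RNA was measured on 2 Agilent 2-colour arrays. The authors deposited, for each spot, a mean signal and a local background median (raw intensity) and processed signals (intensity after background subtraction, detrending and dye normalization, per the file headers). Also deposited were a log10 ratio of Cy5 over Cy3 and its error, a score from the error model of the software. That software was Feature Extraction, for which the file headers name 10.7.3.1 and the submitters' processing notes 10.5.1.1. The series' deposited log10 table equalled the scanner's log ratio on all 44397 features (tolerance 0, column medians 0).

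In R 4.3.3 with limma 3.58.1, signals were corrected by normexp (offset 50) and loess-normalized within arrays. Control spots, and 207 AID transgenic and 197 wild-type outlier spots, were left out. Levels and comparisons of 1 dye across arrays used Aquantile. Probes of a gene were averaged. Python 3.11.15, numpy 2.4.6 and pandas 2.3.3 did the rest. Genes were named through RefSeq (GRCm38.p6): 26055 of 39429 probes by accession, 3195 by symbol, 930 by synonym, 9249 unmatched. A gene was measured when a spot was well above background in a signal that entered. It was counted at a log2 value of 1 in size or more, which is 2-fold.

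Across 399 probes with 10 spots, the log2 ratio had a median SD between spots of 0.07. The markers, the 11 other lists and the alternatives were chosen with earlier results of these data known. Named were all 10 markers, list members at 2-fold and leading list members, and sex-linked genes. Some results are not reported here. Signals depend on the probe, so no level is compared between genes, and precision is limited by having 2 arrays.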

Additional observations from a re-analysis of the deposited data

Results flagged for a closer look

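For 4 of the 10 markers the treatment log2 ratio was above 0 in AID transgenic and below 0 in wild-type. The share of all genes with these opposite signs was not counted. Of all genes, 54.6% were above 0 in AID transgenic and 54.7% in wild-type. Timd4 had 0.92 in AID transgenic and -0.08 in wild-type, and Folr2 had 0.92 and -0.14. C1qa had 0.22 in AID transgenic and -0.29 in wild-type, and C1qb had 0.47 and -0.34. With 1 array per genotype the difference was not tested. The wild-type ratios of Timd4 and Folr2 were within their technical errors, and with median centring all 4 wild-type ratios were above 0. With that centring the median of all wild-type genes was itself 0.35, and Timd4 and C1qb, both at 0.31, lay below it.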

How the results depend on the processing

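The number of markers at least 2-fold higher in the treated AID transgenic liver was 3, but 5 at offset 0 in normexp, 6 with the scanner's processed signals and 8 with median centring, where all genes shifted as well. In wild-type it was 0, and 2 with median centring. The marker median with median centring was 1.49 in AID transgenic and 0.60 in wild-type. The number whose treatment ratios differed by 2-fold was 2, and it was 4 with an offset of 0, 4 with the processed signals and 3 with median centring. For that difference, 0.929% of all genes were at least 2-fold above 0 and 1.05% below, against 2.20% and 2.94% with an offset of 0 and 4.68% and 5.53% with the processed signals. For the treatment ratio, the share of all genes at least 2-fold higher in AID transgenic was 1.21%, and 3.71% with an offset of 0 and 9.09% with the processed signals. The counts and medians of the genotype comparisons stayed within 1.5 times or within the technical error under the alternatives run, and no marker at 2-fold turned its sign. Dim spots limit Cd163, whose difference of treatment ratios was 0.07, and 1.73 with the processed signals. The cause was not tested. No paired analysis was possible because each genotype has 1 array. The arrays lay on the same slide, so it could not be fitted as a block, and no array could be left out.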
